A study of Gallus gallus with 12 samples.

Results

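Cytoplasmic ribosomal protein genes were taken by gene symbol from the table of protein coding genes in a chicken series on Müllerian duct formation. The rule kept symbols that start with RPL or RPS followed by a number, together with RPLP0, RPLP1, RPLP2 and RPSA, and left out the RPS6K kinases. It found 73 of the 17485 protein coding genes, 29 of the small subunit and 44 of the large subunit. RNA was sequenced in bulk from 4 tissues of wild-type Hy-Line Brown embryos with neither sex separated, in 3 pooled libraries per tissue. E4.5-Ant was the anterior urogenital system at embryonic day 4.5, which holds mesonephric kidney, mesentery and the ridge where the Müllerian duct is first specified, pooled from 5 embryos per library. E5.5 duct (3 embryos per pool) and E6.5 duct (4 embryos per pool) were whole dissected Müllerian ducts, with surface epithelium, mesenchyme and the inner epithelium. E4.5-Post was the posterior urogenital system of the same E4.5 embryos (5 per pool), with mesonephros and mesentery and without the ridge, and was the negative control. No group carried a transgene, a deletion or a treatment. The labels of 1 E5.5 sample also name posterior kidney cells, and it was kept as E5.5 duct by its title and tissue.

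Each cytoplasmic ribosome is built from ribosomal RNA and one copy of nearly every protein described here, so cells have to make these proteins in matched amounts. In vertebrates their mRNAs start with a tract of pyrimidines through which translation is tied to nutrient and growth signals. Most of the proteins act as structural parts of the small subunit, which reads the mRNA, or of the large subunit, which joins amino acids, and a few have close paralogs that are used in particular tissues.

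Depth did not limit most of these genes. The 11 libraries used in the tests held between 23899617 and 30921769 counts on protein coding genes, and levels are given below as counts per 1000000 of these (CPM), with reads counted over the whole gene including introns. Library 2 of E4.5-Ant stood apart, with 42.1% of its counts on rRNA genes against 0.199% to 1.95% in the other 11 libraries. It was left out of the tests, since the study omitted 1 unnamed E4.5-Ant sample, and results with all 12 libraries are given where they differ. The Müllerian duct marker list (8 genes, among them PAX2 and LHX1, which are also active in mesonephric tissue) summed to 477 to 537 CPM in E4.5-Ant, 743 to 809 CPM in E5.5 ducts, 1028 to 1128 CPM in E6.5 ducts and 808 to 847 CPM in E4.5-Post, so the anterior tissue held fewer counts on these markers (6 of 8 genes lower at a false discovery rate, FDR, of at most 0.05) although it, and not the posterior one, was labelled as holding duct. No defining marker of the list was at 0. The 7 nephron genes summed to 2570 to 2855 CPM in E4.5-Ant, 1759 to 1949 CPM in E5.5 ducts, 1321 to 1695 CPM in E6.5 ducts and 2855 to 3354 CPM in E4.5-Post. The 9 red blood cell genes summed to 2957 to 3335 CPM in E4.5-Ant, 833 to 1353 CPM in E5.5 ducts, 1044 to 1186 CPM in E6.5 ducts and 2911 to 3764 CPM in E4.5-Post. These sums hide opposite changes. In E6.5 ducts over E4.5-Post, 2 red blood cell genes were called higher and 6 lower, and 2 nephron genes higher and 4 lower. Of all tested genes, 29.7% were higher and 28.2% lower there. The part of these cell types in the ribosomal protein values was not tested. In these mixed tissues, fewer cells of a type and less RNA per cell cannot be told apart.

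A small and similar share of counts on protein coding genes fell on these 73 genes in every tissue. The share was 3.82% and 3.93% in E4.5-Ant, 4.03%, 3.24% and 3.98% in E5.5 ducts, 3.98%, 4.46% and 3.90% in E6.5 ducts and 4.18%, 4.09% and 4.22% in E4.5-Post. The means were 3.88% ± 0.0756 in E4.5-Ant (SD, n = 2), 3.75% ± 0.444 in E5.5 ducts (n = 3), 4.11% ± 0.303 in E6.5 ducts (n = 3) and 4.16% ± 0.0636 in E4.5-Post (n = 3). Each E4.5-Ant and E5.5 value lay below each E4.5-Post value, by as little as 0.0642 percentage points, while the E6.5 values lay on both sides of them. The rRNA-rich E4.5-Ant library had 2.93%, the lowest of the 12 libraries, and with it the E4.5-Ant mean was 3.56%.

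**Figure D1:**
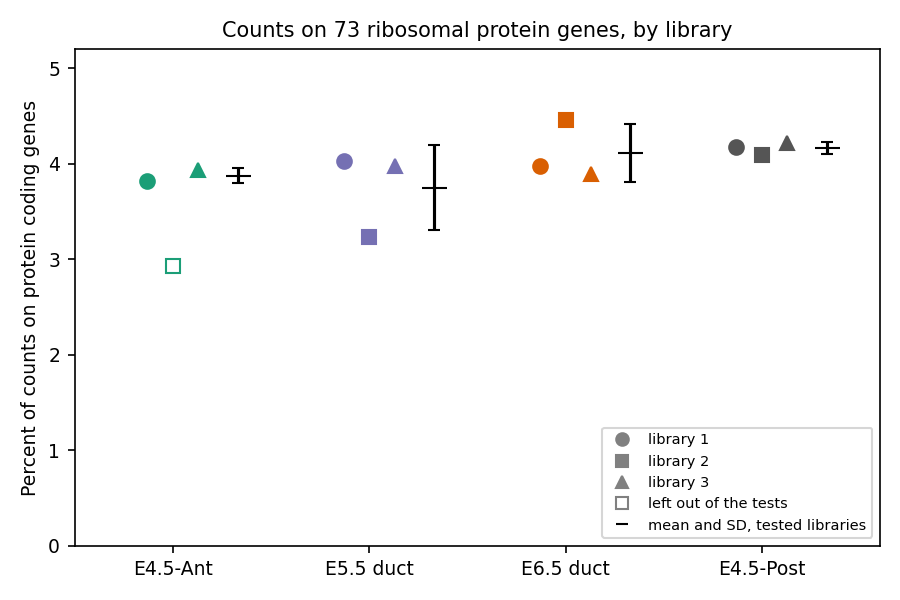
Percent of counts on protein coding genes that fell on the 73 ribosomal protein genes, for each library (symbols) of the 4 tissues, with the mean and SD of the libraries used in the tests. The open square is the E4.5-Ant library left out of the tests, at 2.93%, and E5.5 duct library 2, at 3.24%, is the lowest of the others.

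Single libraries moved nearly all of the genes together. E5.5 duct library 2 lay below the mean of the other E5.5 libraries for 71 of 71 tested genes, with a median difference of -0.32 on the log2 scale. This library also had the highest rRNA share of the 11 (1.95%) and the highest share of counts on mitochondrial genes (6.56%, against 3.10% to 5.42% in the other 10), and the part of either in its low ribosomal protein levels was not tested. E6.5 duct library 2 lay above the other E6.5 libraries for all 71 genes, by a median of 0.19. The median within-tissue SD over the genes was 0.038 in E4.5-Ant, 0.18 in E5.5 ducts, 0.12 in E6.5 ducts and 0.032 in E4.5-Post on the log2 scale, with 2 libraries in E4.5-Ant and 3 in each other tissue. This order turned on single libraries, since the SD was 0.23 in E4.5-Ant with the rRNA-rich library, which lay below the other E4.5-Ant libraries for 70 of 71 genes, 0.027 in E5.5 ducts without library 2 and 0.033 in E6.5 ducts without library 2. For these reasons the counts below are also given without E5.5 duct library 2 and, where it moves them, E6.5 duct library 2. Where a count from an altered fit stands without the share of all tested genes, it shows only how the calls moved. It does not set these genes apart from genes in general.

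Across tissues the genes were close to flat. Of the 73 genes, 71 passed the filter on low counts. The ratio of the highest to the lowest tissue mean ran between 1.01 (RPL22L1) and 1.84 (RPL3L), with a median of 1.14, and was under 1.3 for 67 of 71 genes. The highest mean was in E4.5-Post for 41 genes, in E6.5 ducts for 29 and in E5.5 ducts for 1, and the lowest was in E5.5 ducts for 58, in E4.5-Ant for 8, in E6.5 ducts for 4 and in E4.5-Post for 1. The place of the lowest mean turned on E5.5 duct library 2, without which it was in E4.5-Ant for 50 genes, in E5.5 ducts for 8, in E6.5 ducts for 12 and in E4.5-Post for 1, and with all 12 libraries it was in E4.5-Ant for 63 and in E5.5 ducts for 6. Without E6.5 duct library 2, the highest mean was in E4.5-Post for 57 genes and in E6.5 ducts for 13. Of the 29 small subunit genes, 17 were highest in E6.5 ducts and 12 in E4.5-Post, against 12 and 29 of the 42 tested large subunit genes, and without E6.5 duct library 2 the genes highest in E6.5 ducts were 9 small and 4 large subunit genes. With an FDR of at most 0.05 and a change of at least 1.5-fold, the limits of the study, 1 gene was called in the 6 comparisons, RPL3L in E6.5 ducts over E4.5-Post, where 25.3% of all tested genes passed them. The share of all genes past both limits was 10.8% in E4.5-Ant over E4.5-Post, 20.6% in E5.5 ducts over E4.5-Post, 13% in E5.5 ducts over E4.5-Ant, 7.56% in E6.5 over E5.5 ducts and 19.7% in E6.5 ducts over E4.5-Ant, with no ribosomal protein gene among them. The counts that follow use the FDR alone, from edgeR's quasi-likelihood test adjusted over all 16603 tested genes. The ± beside a log2 fold change is an approximate standard error derived from the F statistic of that test.

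**Figure D2:**
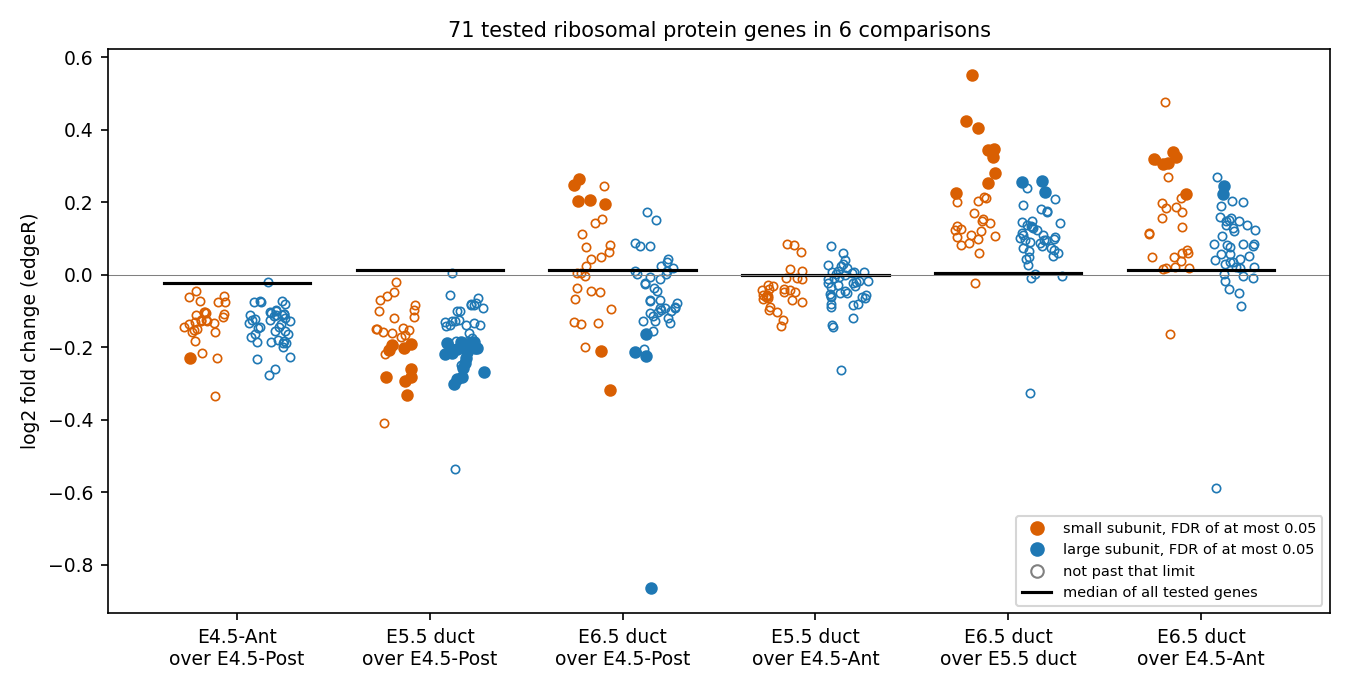
Log2 fold changes of the 71 tested ribosomal protein genes (vertical axis) in 6 comparisons, with small subunit genes to the left and large subunit genes to the right, filled points for genes at FDR of at most 0.05 and black bars for the median of all 16603 tested genes. All 71 points lie below 0 in E4.5-Ant over E4.5-Post, and the 12 filled points of E6.5 duct over E5.5 duct lie above 0, 9 of them small subunit genes.

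The anterior tissue had slightly lower values than the posterior tissue across these genes, 1 of which passed the test. All 71 tested genes had a negative log2 fold change in E4.5-Ant over E4.5-Post, with a median of -0.13 against -0.02 for all tested genes, and 1 was called lower where 14.8% of all genes were (25.1% of genes of at least 100 CPM). None was called higher by edgeR, voom with limma or DESeq2, and none had an unadjusted p under 0.05 in that direction, against 11 in the other. The gene called was RPSA (chr2:44295260-44300007, minus strand, GRCg6a), a protein of the small subunit that in mammals also serves as a laminin receptor. Its levels were 1259 and 1241 CPM in E4.5-Ant, 1247, 1012 and 1180 CPM in E5.5 ducts, 1214, 1298 and 1204 CPM in E6.5 ducts and 1442, 1424 and 1434 CPM in E4.5-Post, with every E4.5-Post library above every other library. Its log2 fold change was -0.23 ± 0.07 (FDR 0.0335) without pairing of the tissues. RPSA was not called with the E4.5 column number as a block, a fit in which E4.5-Post library 2 had no partner. The call was lost (FDR up to 0.183) in each of the 5 fits that left out 1 E4.5-Ant or E4.5-Post library. Without E5.5 duct library 2, which enters through the shared spread, 11 genes were lower (16.2% of all genes), without E6.5 duct library 2 it was 3, and with all 12 libraries 13 were, at a median of -0.25. No gene was lower or higher once libraries were scaled to their ribosomal protein counts. This scaling takes out any shift that these genes share, so it does not test such a shift.

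Over E4.5-Post the E5.5 duct had lower calls only, and their number changed as single libraries of either tissue were left out. Of 71 genes, 26 (36.6%) were lower and none higher, where 26.5% of all tested genes and 40.6% of those of at least 100 CPM were lower and 27.3% of all genes were higher, so the share lay between the 2 backgrounds. The median log2 fold change was -0.17 against 0.01 for all genes, and 70 of 71 values were negative. None had an unadjusted p under 0.05 in the higher direction by any of the 3 tools. The lower genes held 9 of 29 small and 17 of 42 large subunit genes. RPSA had the lowest log2 fold change of those called, -0.33 ± 0.07 (FDR 0.000774), and its call held in 11 of 11 fits that left out 1 library. RPL38, a large subunit protein that in mice is needed for translation of some Hox mRNAs, had 201, 149.5 and 186 CPM in E5.5 ducts against 222, 217 and 218 CPM in E4.5-Post (-0.30 ± 0.10, FDR 0.0196). RPL35A, also of the large subunit, had 311, 242 and 293 CPM in E5.5 ducts against 345, 336 and 345 CPM in E4.5-Post (-0.29 ± 0.08, FDR 0.00614). In each of these genes E5.5 duct library 2 was the lowest and every E5.5 value lay below every E4.5-Post value.

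The other named genes of this comparison were RPS2, a protein at the mRNA entry of the small subunit, and RPS27L, the paralog of RPS27. RPS2 (chr14:6539294-6541960) had 1242, 981 and 1195 CPM in E5.5 ducts and 1332, 1443 and 1355 CPM in E4.5-Post (-0.28 ± 0.08, FDR 0.00747). RPS27L had 27.8, 20.8 and 26.5 CPM in E5.5 ducts and 33.1, 29.5 and 28.9 CPM in E4.5-Post (-0.29 ± 0.09, FDR 0.0122). Again the groups did not overlap for either gene. Without E5.5 duct library 2 the count was 9 lower (where 24.5% of all genes were), all among the 26 (RPSA, RPL7L1, RPL35A, RPL32, RPS2, RPLP0, RPL22, RPS25 and RPL19), the median was -0.08, and RPL38 stood at -0.20 (FDR 0.0883) and RPS27L at -0.19 (FDR 0.0506). These 9 genes kept the call in all 11 fits that left out 1 library. In the same fit E4.5-Ant had 11 lower, where 16.2% of all genes were, and E6.5 ducts had 8 higher and 9 lower. With all 12 libraries the lower calls were 13 in E4.5-Ant and 10 in E5.5 ducts. The order of the tissues by number of calls was thus not stable. The shares of all genes beside the other counts are not given, so those counts show only that the calls moved. Without E4.5-Post library 1, 2 or 3 the E5.5 count was 12, 14 and 13. Scaled to the counts on ribosomal proteins, which takes out a shared shift, no gene was called, while the median of all genes moved to 0.18.

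In the E6.5 duct the genes split by direction. Over E4.5-Post, 5 were higher and 6 lower of 71, where 29.7% of all tested genes were higher and 28.2% lower, so fewer of them were called than of genes in general. Their median was -0.04 against 0.01 for all genes, and -0.09 without E6.5 duct library 2. The 5 higher genes were all of the small subunit. RPS26, which contacts the mRNA at the exit site, had 221 and 224 CPM in E4.5-Ant, 218, 188 and 207 CPM in E5.5 ducts, 263, 323 and 231 CPM in E6.5 ducts and 230.0, 219 and 232 CPM in E4.5-Post (log2 fold change 0.26 ± 0.09 (FDR 0.0198), called in 9 of 11 fits that left out 1 library). Its E6.5 and E4.5-Post values overlapped, since E6.5 duct library 3 lay within the E4.5-Post range, while E6.5 duct library 2 was the highest of all. RPS12 had a log2 fold change of 0.21 ± 0.08 (FDR 0.0347), RPS10 one of 0.20 ± 0.07 (FDR 0.0241) and RPS20 one of 0.20 ± 0.07 (FDR 0.0318). The call held in 7 of 11 such fits for RPS12 and for RPS20 and in 8 for RPS10, with FDR up to 0.151. Without E6.5 duct library 2, 1 gene was still higher, and 13 genes were lower.

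The 6 lower genes were RPL3L, RPS27L, RPL22, RPL35A, RPSA and RPL7L1. RPL3L, RPS27L and RPL7L1 are paralogs of RPL3, RPS27 and RPL7. RPSA stood at -0.21 ± 0.07 (FDR 0.0146), RPL35A at -0.21 ± 0.08 (FDR 0.0294), RPL22 at -0.22 ± 0.07 (FDR 0.0173) and RPL7L1 at -0.16 ± 0.05 (FDR 0.00664). RPL7L1, RPS27L and RPL3L kept the call in all 11 fits that left out 1 library, RPSA in 10, RPL22 in 9 and RPL35A in 6. The count without E6.5 duct library 3 was 3 lower, and that of higher genes was 2 without E4.5-Post library 1 or 2 and 8 without E5.5 duct library 2. With all 12 libraries, 4 were lower and none higher. Scaled to ribosomal protein counts, 7 were higher and 5 lower, where 25.8% and 20.5% of all genes were, and RPS26, RPS10, RPS12 and RPS20 were among the higher ones, with log2 fold changes between 0.21 and 0.28.

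Between E5.5 and E6.5 ducts only higher calls were made. Of 71 genes, 12 (16.9%) were higher in E6.5 ducts and none lower, where 14.5% of all genes were higher and 13.5% lower, and the median was 0.12 against 0.01 for all genes, but 0.04 without E5.5 duct library 2 and 0.07 without E6.5 duct library 2. None of the 71 had an unadjusted p under 0.05 for a lower level by edgeR, voom with limma or DESeq2. The calls were 9 of 29 small subunit genes (31.0%) and 3 of 42 large subunit genes (7.14%), and the difference between the subunits was not tested. The small subunit calls included RPS28, RPS26, RPS27, RPS20, RPS13, RPS19, RPS12 and RPS10, and the 3 large subunit calls were RPLP0, RPL27 and RPL15. Without E5.5 duct library 2, 5 were higher (RPS20, RPS26, RPS19 and RPLP0 among them, where 11.6% of all genes were), and without E6.5 duct library 2, 4 were.

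The values of the leading genes show how far the ducts differed. RPS20 (chr2:111204399-111207058), which sits in the head of the small subunit, had 569, 628 and 524 CPM in E6.5 ducts and 493, 400.1 and 470.1 CPM in E5.5 ducts (0.35 ± 0.07, FDR 0.00321). RPS26 had 263, 323 and 231 CPM in E6.5 ducts and 218, 188 and 207 CPM in E5.5 ducts (0.42 ± 0.09, FDR 0.00334). For RPS20 and RPS26 each E6.5 library was above each E5.5 library, and the calls held in all 11 fits that left out 1 library. RPS19, a small subunit protein whose reduced dose causes a congenital anemia in humans, had 348, 400.4 and 341 CPM in E6.5 ducts and 327, 271 and 306 CPM in E5.5 ducts (0.28 ± 0.07, FDR 0.00662), again without overlap and in all 11 fits.

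RPS28 and RPS27 combined large fold changes with uneven libraries. RPS28 (chr28:982804-983351, a gene of 548 bases) had 93.4 and 121 CPM in E4.5-Ant, 115, 82.5 and 102 CPM in E5.5 ducts, 112, 189 and 136 CPM in E6.5 ducts and 117, 169.8 and 108 CPM in E4.5-Post. Library 2 of E6.5 ducts and library 2 of E4.5-Post were the highest of their tissues, and the E6.5 and E5.5 values overlapped. Its log2 fold change in E6.5 over E5.5 ducts was 0.55 ± 0.19 (FDR 0.0405), and 0.33 (FDR 0.240) without E6.5 duct library 2. RPS27 had 197 and 219.6 CPM in E4.5-Ant, 213, 159 and 207 CPM in E5.5 ducts, 230.1, 298 and 232 CPM in E6.5 ducts and 208, 239 and 196 CPM in E4.5-Post, with the same 2 libraries highest (0.40 ± 0.11, FDR 0.0150 in E6.5 over E5.5 ducts, and 0.28 (FDR 0.0907) without E6.5 duct library 2). Scaled to the counts on ribosomal proteins, RPS26 was the 1 gene called in this comparison (log2 fold change 0.27, FDR 0.0418), and 4.11% of all genes were then higher.

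Against E4.5-Ant, the E5.5 duct had no called gene and the E6.5 duct had 8. In E5.5 ducts over E4.5-Ant, edgeR called none of 71 in either direction, where 16% of all genes were higher and 14.5% lower, and the median was -0.04 with 53 of 71 values negative. This direction turned without E5.5 duct library 2, with a median of 0.04 and 59 positive values, and with all 12 libraries, with a median of 0.07 and 63 positive values. The gene with an unadjusted p under 0.05 was RPL7L1, a paralog of RPL7 (-0.14 ± 0.05, FDR 0.0508), which voom with limma and DESeq2 each called lower, as did the fits without E5.5 duct library 1 or E6.5 duct library 2. Without E5.5 duct library 2, RPS10 was higher in its place. In E6.5 ducts over E4.5-Ant, 8 were higher (among them RPS12, RPS26, RPS20, RPS10, RPL27, RPL15 and RPS19) and none lower, where 23% of all genes were higher and 21.6% lower, and the median was 0.09, but 0.04 without E6.5 duct library 2 and 0.18 with all 12 libraries. No gene had an unadjusted p under 0.05 for a lower level by any of the 3 tools. RPS12, a small subunit protein, had 740.0, 815 and 694 CPM in E6.5 ducts and 589.7 and 623 CPM in E4.5-Ant (0.34 ± 0.09, FDR 0.00589), and RPS10, a protein of the small subunit head, had 665, 728 and 676 CPM in E6.5 ducts and 579 and 562 CPM in E4.5-Ant (0.31 ± 0.08, FDR 0.00664). The count was 3 without E4.5-Ant library 1 or 3, 4 without E6.5 duct library 2, 13 without E6.5 duct library 1, 19 without E5.5 duct library 2 and 17 with all 12 libraries.

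The subunits as a whole showed the same lean. The ratio of summed small subunit to summed large subunit counts was 0.717 and 0.716 in E4.5-Ant, 0.707, 0.716 and 0.710 in E5.5 ducts, 0.729, 0.741 and 0.750 in E6.5 ducts and 0.714, 0.711 and 0.712 in E4.5-Post. Each E6.5 library was above each of the other 8, and the remaining 8 lay between 0.707 and 0.717. The rRNA-rich E4.5-Ant library had 0.702. Without RPS26, RPS27 and RPS28, a choice made after their values were seen, the ratio was 0.702, 0.710 and 0.723 in E6.5 ducts and between 0.684 and 0.694 in the other 8 libraries. The mean in E6.5 ducts was 0.740 ± 0.0107 (SD, n = 3), against 0.711 ± 0.00441 in E5.5 ducts (n = 3). These ratios describe the sums, which the abundant genes dominate, and were not tested. Of single genes, 6 of 71 (8.45%) were higher in every E6.5 library than in each of the other 8 (among them RPL15, RPS10, RPS12, RPS20 and RPS3A), against 11.2% of all tested genes.

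**Figure D3:**
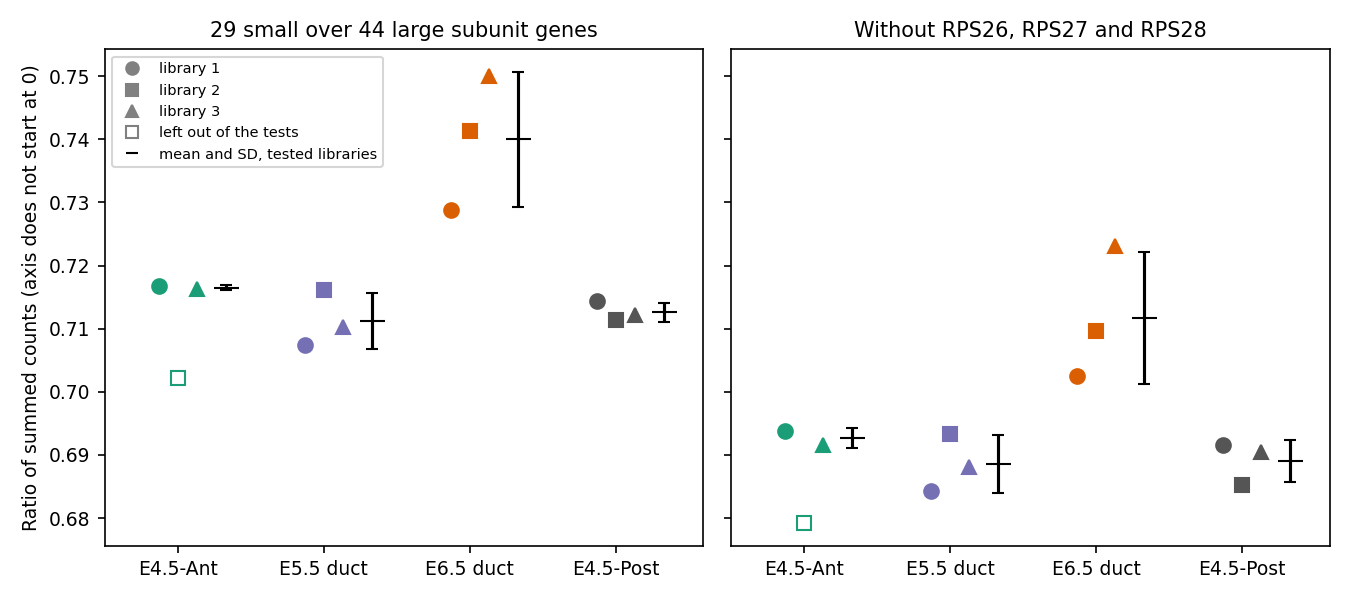
Ratio of summed counts on small subunit genes to those on large subunit genes by library, with all genes on the left and without RPS26, RPS27 and RPS28 on the right, with the mean and SD of the libraries used in the tests. The 3 E6.5 libraries are the highest in both panels, between 0.729 and 0.750 on the left.

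Among the genes with known particular roles, RPS6, RPL5, RPL11 and RPS14 were called in no comparison, whereas RPSA, RPS19 and RPL38, described above, were called. RPS6 (Z chromosome), the target of the S6 kinases, had 925 and 1025 CPM in E4.5-Ant, 980.5, 934 and 1091 CPM in E5.5 ducts, 951, 1190 and 1134 CPM in E6.5 ducts and 1018, 963 and 1158 CPM in E4.5-Post, and no comparison passed the test (FDR 0.125 to 0.679). RPL5 and RPL11, which with 5S rRNA can bind and block MDM2, had log2 fold changes between -0.13 and 0.13, none called. RPS14, whose reduced dose causes anemia in humans, had log2 fold changes between -0.15 and 0.15, none called. RPLP0, RPLP1 and RPLP2 form the stalk of the large subunit that recruits elongation factors. RPLP0 had 1034 and 972 CPM in E4.5-Ant, 1033, 818 and 996 CPM in E5.5 ducts, 1077, 1174 and 1132 CPM in E6.5 ducts and 1131, 1130 and 1118 CPM in E4.5-Post, lower in E5.5 ducts than in E4.5-Post (-0.26 ± 0.07, FDR 0.00823) and higher in E6.5 ducts than in E5.5 ducts (0.26 ± 0.07, FDR 0.0165). RPLP1 (-0.22 ± 0.08, FDR 0.0265) and RPLP2 (-0.28 ± 0.09, FDR 0.0157) were also lower in E5.5 ducts than in E4.5-Post, though without E5.5 duct library 2 they stood at -0.13 (FDR 0.103) and -0.22 (FDR 0.0661). In E6.5 over E5.5 ducts RPLP1 had 0.13 ± 0.08 (FDR 0.227) and RPLP2 0.24 ± 0.09 (FDR 0.0616).

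In several paralog pairs the test called 1 gene and not the other. No difference within a pair was tested, and RPS27L and RPL3L had far lower levels than RPS27 and RPL3. RPL22L1, which can take the place of RPL22 in the ribosome, had the narrowest range of tissue means, with log2 fold changes between -0.02 and 0.03. It had 167 and 169.8 CPM in E4.5-Ant, 179, 148 and 179.9 CPM in E5.5 ducts, 162, 178 and 162 CPM in E6.5 ducts and 168, 161 and 173 CPM in E4.5-Post. For this gene E5.5 duct library 2 was the lowest of the tested libraries and E5.5 libraries 1 and 3 were the highest. The narrow range of its means thus rested on E5.5 duct library 2. RPL22 itself had 211 and 214 CPM in E4.5-Ant, 215, 175 and 201 CPM in E5.5 ducts, 202, 224 and 179.7 CPM in E6.5 ducts and 233, 232 and 243 CPM in E4.5-Post, lower in E5.5 ducts (-0.27 ± 0.07, FDR 0.00692) and E6.5 ducts (-0.22 ± 0.07, FDR 0.0173) than in E4.5-Post. The difference between the 2 paralogs was not tested. RPS27L had 24.6, 24.8 and 23.9 CPM in E6.5 ducts and 33.1, 29.5 and 28.9 CPM in E4.5-Post (-0.32 ± 0.09, FDR 0.00738), whereas RPS27 had 0.24 ± 0.11 (FDR 0.0730) in the same comparison. RPL7L1 was lower in E5.5 ducts (142, 134 and 145 CPM) than in E4.5-Post (162, 159 and 164 CPM), with a log2 fold change of -0.21 ± 0.05 (FDR 0.00111), and RPL7 had -0.20 ± 0.07 (FDR 0.0285) there, which was -0.11 (FDR 0.0866) without E5.5 duct library 2.

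RPL3L (chr14:6528968-6537231, minus strand), the paralog of RPL3 that mammals use in skeletal and heart muscle, had the fewest counts of the tested genes. It had 25 and 18 counts in E4.5-Ant, 22, 19 and 18 in E5.5 ducts, 17, 15 and 11 in E6.5 ducts and 26, 26 and 29 in E4.5-Post, with each E6.5 library below each of the others in CPM. The log2 fold change was -0.86 ± 0.23 (FDR 0.00530) in E6.5 ducts over E4.5-Post, -0.54 ± 0.22 (FDR 0.0515) in E5.5 ducts over E4.5-Post and -0.33 ± 0.24 (FDR 0.409) in E6.5 over E5.5 ducts. The 6 skeletal muscle markers summed to 48.1 to 50.02 CPM in E4.5-Ant, 56.2 to 107 CPM in E5.5 ducts, 10.7 to 20.4 CPM in E6.5 ducts and 47.1 to 99.6 CPM in E4.5-Post, with at most 1 of the 6 at 0 in any library, and their part in the RPL3L values was not tested. RPL3 was called in no comparison, and its lowest log2 fold change was -0.13.

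RPL14, of the large subunit, had at most 2 counts in a library and did not pass the filter. Other vertebrate cells make this protein. Whether the gene model or the counting lost its reads was not tested, so these counts are not taken as the expression of RPL14 in the tissues. RPL26L1 is listed without RPL26.

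Chromosome Z carries 4 of the genes, RPS6, RPS23, RPL17 and RPL37. Female birds are ZW and males ZZ, and the embryos were pooled without sexing. W-linked protein coding genes (46 genes) summed to 1844 and 1421 CPM in E4.5-Ant, 1825, 1398 and 1412 CPM in E5.5 ducts, 1690, 1214 and 947 CPM in E6.5 ducts and 1387, 1636 and 1137 CPM in E4.5-Post. The 4 Z-linked genes held 5.55% and 6.15% of ribosomal protein counts in E4.5-Ant, 5.67%, 6.37% and 6.33% in E5.5 ducts, 5.55%, 6.28% and 6.68% in E6.5 ducts and 6.02%, 5.66% and 6.43% in E4.5-Post. Within each tissue the library with the most W-linked counts had the lowest Z-linked share and the one with the fewest had the highest. The levels of the 4 genes did not follow the same order, since E5.5 duct library 2, with the fewest W-linked counts of its tissue, had the lowest CPM of each. The E4.5-Ant library left out went against this, with 2173 CPM on W-linked genes and 6.31%, and over all 12 libraries, which share tissue and pool composition, Pearson's r was -0.61 as a description. RPS23, a protein of the decoding center, had 447, 615 and 548 CPM in E6.5 ducts and 471, 417 and 512 CPM in E5.5 ducts, which overlapped, and its call in E5.5 ducts over E4.5-Post (-0.26 ± 0.10, FDR 0.0488) was -0.20 (FDR 0.159) without E5.5 duct library 2. The part of pool sex in the Z-linked values was not tested.

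**Figure D4:**
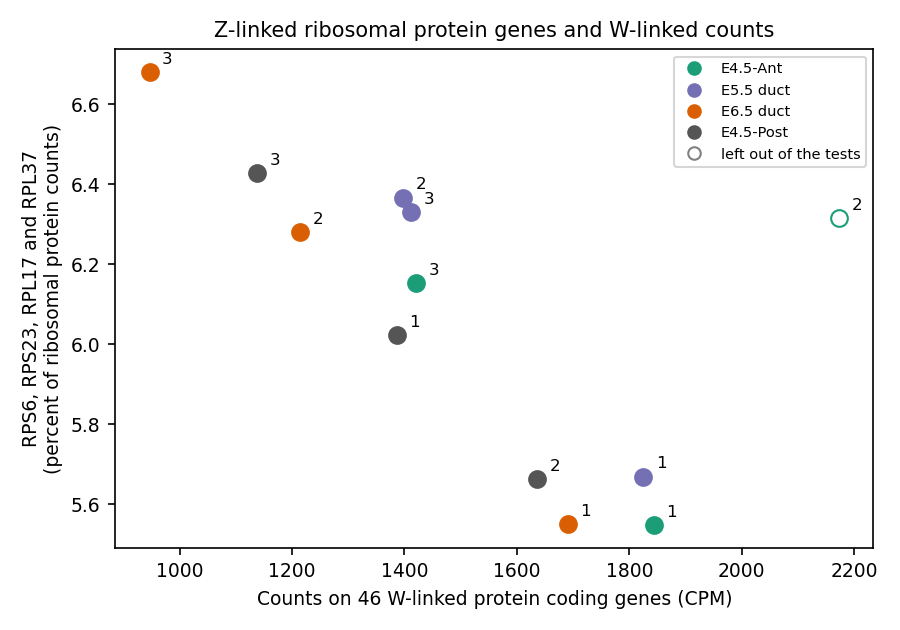
Share of ribosomal protein counts on the Z-linked genes RPS6, RPS23, RPL17 and RPL37 (vertical axis, percent) against counts on 46 W-linked genes (horizontal axis, CPM), 1 point per library with its number. In each tissue the share is highest in the library with the fewest W-linked counts, except that the open point, the E4.5-Ant library left out, has 6.31% at 2173 CPM.

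Genes of the machinery that builds ribosomes had more calls and lower medians than the ribosomal proteins. Of 70 ribosome biogenesis factors, 51 were lower in E4.5-Ant, 66 in E5.5 ducts and 60 in E6.5 ducts than in E4.5-Post, with none higher and medians of -0.24, -0.44 and -0.36, against medians of -0.13, -0.17 and -0.04 for the cytoplasmic ribosomal proteins. Of all tested genes, 14.8% were lower in E4.5-Ant, 26.5% in E5.5 ducts and 28.2% in E6.5 ducts. Without E5.5 duct library 2 the counts were 53 in E4.5-Ant, 64 in E5.5 ducts and 60 in E6.5 ducts. Of 74 mitochondrial ribosomal proteins, which are encoded in the nucleus and serve the organelle's own ribosome, 37 were lower in E4.5-Ant, 66 in E5.5 ducts and 58 in E6.5 ducts, and none was higher (medians -0.23, -0.40 and -0.34). The list for RNA polymerase I, which makes the large rRNA, was drawn up with subunits shared with other RNA polymerases and with its transcription factors. It had 8 of 16 genes lower and 1 higher in E4.5-Ant, 10 lower and 2 higher in E5.5 ducts, and 9 lower and 3 higher in E6.5 ducts. The initiation factors had 16 of 32 lower in E4.5-Ant, 24 lower and 1 higher in E5.5 ducts, and 20 lower and 1 higher in E6.5 ducts (medians -0.16, -0.26 and -0.27). The 3 tissues share the E4.5-Post libraries, and a difference between lists was not tested.

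**Figure D5:**
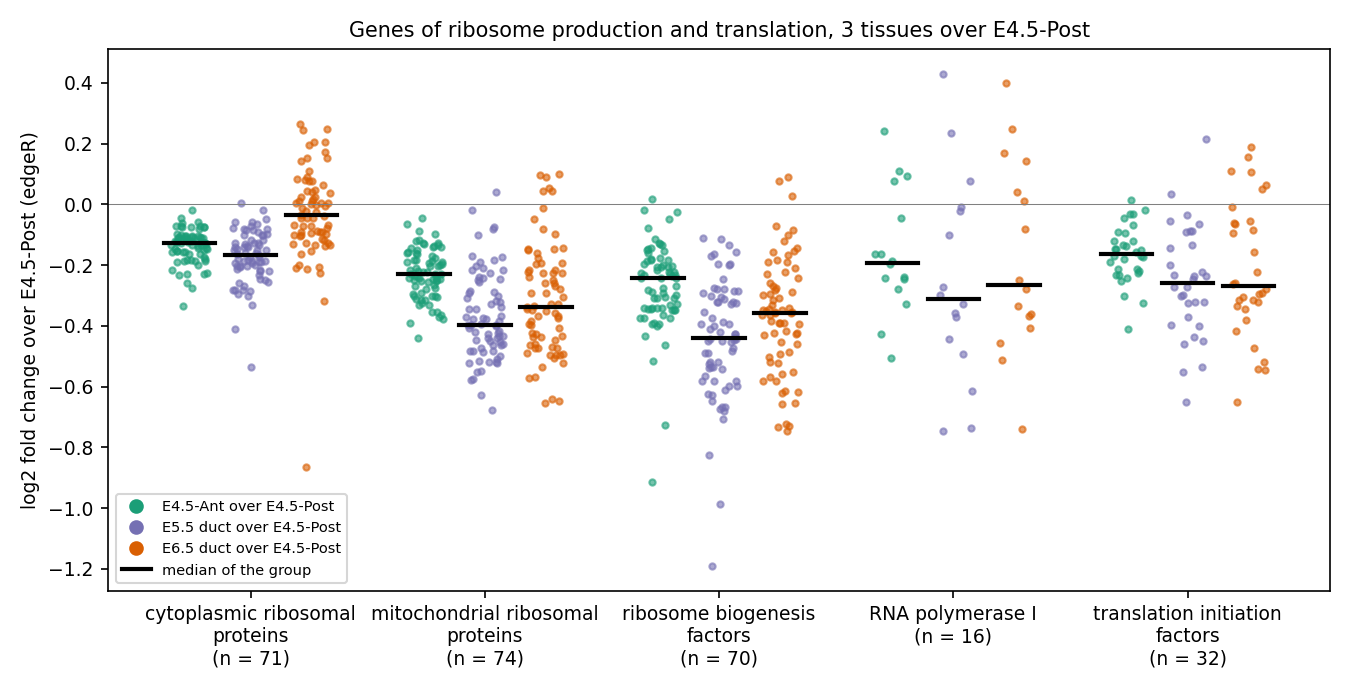
Log2 fold changes over E4.5-Post (vertical axis) of cytoplasmic ribosomal proteins and 4 other gene groups, 1 point per gene, in E4.5-Ant, E5.5 ducts and E6.5 ducts, with black bars for the median of each group. The medians of cytoplasmic ribosomal proteins lie between -0.17 and -0.04, and those of ribosome biogenesis factors between -0.44 and -0.24.

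Mitosis and proteasome genes were counted in the same way. Over E4.5-Post, 20 of 29 mitosis genes were lower in E4.5-Ant, 29 in E5.5 ducts and 28 in E6.5 ducts. Of 30 proteasome subunits, 22 were lower in E4.5-Ant, 30 in E5.5 ducts and 28 in E6.5 ducts, and no gene of either list was higher, where 14.8%, 26.5% and 28.2% of all tested genes were lower in these tissues. Between E6.5 and E5.5 ducts these lists had fewer calls, with 8 higher and 2 lower of 70 biogenesis factors, 8 higher and 1 lower of 74 mitochondrial ribosomal proteins, 1 higher and 3 lower of 29 mitosis genes and 4 higher of 30 proteasome subunits, near or below the 14.5% of all genes that were higher and 13.5% that were lower. Among 29 tested genes of growth control, such as MYC, MYCN and the S6 kinases, 9 were higher and 5 lower in E6.5 than in E5.5 ducts. The elongation factors (8 genes) had no call there, and over E4.5-Post they had 1 lower in E4.5-Ant, 1 higher and 2 lower in E5.5 ducts, and 3 higher and 1 lower in E6.5 ducts, of 8 tested in each case. The 23 other mRNAs with a known pyrimidine tract had 4 higher and 1 lower in E6.5 over E5.5 ducts, and 0 higher and 8 lower in E5.5 ducts over E4.5-Post, where 26.5% of all genes were lower.

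Ribosomal components outside the symbol rule included FAU and RACK1. FAU, which encodes a ribosomal protein fused to a ubiquitin-like sequence, was called in no comparison. RACK1, a scaffold on the head of the small subunit, had 806 and 788 CPM in E4.5-Ant, 859, 697 and 837 CPM in E5.5 ducts, 943, 1027 and 969 CPM in E6.5 ducts and 855, 846 and 846 CPM in E4.5-Post. Each E6.5 value was above every other library. Its log2 fold change in E6.5 ducts was 0.31 ± 0.07 (FDR 0.00394) over E5.5 ducts, 0.33 ± 0.07 (FDR 0.00256) over E4.5-Ant and 0.21 ± 0.07 (FDR 0.0149) over E4.5-Post.

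Across the 11 libraries the genes most like the mean of the ribosomal protein genes, by Pearson's r over 11726 candidates, were RRP36 (0.968), an rRNA processing factor, SMIM19 (0.965), NTHL1 (0.964), a DNA repair enzyme, CHURC1 (0.954) and CIAPIN1 (0.954). The points share tissue and library, so these values describe how profiles ran together. They include E5.5 duct library 2 and E6.5 duct library 2, each of which moved all 71 genes together, and the ranking was not repeated without them. Of the 71 genes, RPL34 was closest to the mean of the others (0.987), and RPL3L (0.209), RPS6 (0.568), RPS27L (0.617) and RPL7L1 (0.641) were farthest from it.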

How the data were processed

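The authors sequenced stranded mRNA libraries on an Illumina NextSeq500, aligned reads by STAR (RNAsik pipeline) and made gene counts by featureCounts 1.6.2. Per the file headers, the deposited counts are raw reads on whole genes of GRCg6a, introns included, counted by strand and without the multi-mapping or overlap options, so reads shared with paralogs or copies could be lost, and with marked duplicates kept. Counts of 12 libraries were used, 3 per tissue. The columns name the tissue and a number, so libraries were assigned to tissues only. Gene positions come from the same tables, and chromosome names from matching symbols to the RefSeq annotation of GRCg7b, in which 69 of 73 symbols were found. No genome or sequence tables were at hand, so no sequences are printed.

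Genes were tested with edgeR 4.0.16 (R 4.3.3) by its quasi-likelihood test with TMM scaling and filterByExpr on 11 libraries of the 4 tissues in 1 fit, with Benjamini-Hochberg adjustment over 16603 genes (FDR). The study used limma with voom, which was an alternative (limma 3.58.1), as was DESeq2 1.42.0. The ± beside a log2 fold change is an approximate standard error, its absolute value divided by the square root of the quasi-likelihood F statistic. The p-values measure the spread between pools of embryos. The code was tested on simulated data in 1 comparison, with changes larger than any reported here for a ribosomal protein gene. That test does not speak to calls of small changes. Other alternatives were all 12 libraries, other scalings and filters, 2 tissues per fit, the fold limit and each library left out in turn. Leaving ribosomal protein genes out of the scaling, scaling to their counts, blocking by the E4.5 column number, and the subunit ratio without 3 genes were chosen after seeing the data. The named genes were, per comparison, the 5 highest and 5 lowest log2 fold changes among calls of at least 5 CPM, every gene past the fold limit, a fixed set with known roles, the paralog pairs, genes with under 10 counts in every library and the 5 most similar other genes. Members and lists were chosen with earlier results of these data known. Some genes are not reported here by name.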

Additional observations from a re-analysis of the deposited data

How the results depend on the processing

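No called value changed sign under the alternatives run, while single named genes lost their call in 58 values under other settings and in 61 with a library left out. When single libraries were omitted in turn, the ribosomal protein genes called lower were 0 to 11 in E4.5-Ant over E4.5-Post, 9 to 37 in E5.5 ducts over E4.5-Post, 3 to 13 in E6.5 ducts over E4.5-Post and 0 to 1 in E5.5 ducts over E4.5-Ant, and those called higher were 1 to 8 in E6.5 ducts over E4.5-Post, 0 to 1 in E5.5 ducts over E4.5-Ant, 4 to 18 in E6.5 over E5.5 ducts and 3 to 19 in E6.5 ducts over E4.5-Ant. With all 12 libraries, E4.5-Ant over E4.5-Post had 13 lower (median -0.25), E5.5 ducts over E4.5-Post 10 lower, E6.5 ducts over E4.5-Post 0 higher, E6.5 over E5.5 ducts 3 higher and E6.5 ducts over E4.5-Ant 17 higher, and the E4.5-Ant share of counts was 3.56%. With library size only, the counts were 0 lower in E4.5-Ant over E4.5-Post, 17 lower in E5.5 ducts over E4.5-Post, 2 higher in E6.5 ducts over E4.5-Post, 1 lower in E5.5 ducts over E4.5-Ant and 5 higher in E6.5 ducts over E4.5-Ant. Fitting only the 2 tissues compared gave 19 lower in E4.5-Ant over E4.5-Post, 8 higher in E6.5 ducts over E4.5-Post, 6 higher in E6.5 over E5.5 ducts and 14 higher in E6.5 ducts over E4.5-Ant. E4.5-Ant over E4.5-Post had 2 lower with no filter on low counts and 3 by DESeq2, and E5.5 ducts over E4.5-Post had 16 lower among protein coding genes only. In E5.5 ducts over E4.5-Ant, 1 gene was lower with DESeq2 size factors, with at least 10 counts in every library, by voom with limma and by the DESeq2 Wald test. The fold limit left 1 gene lower in E6.5 ducts over E4.5-Post and 0 in each other count. The cause of these differences was not tested. The shares of all genes called in these fits are not given here, so the counts show only how the calls moved. The labels number no replicates, but the columns do, and both E4.5 tissues came from the same embryos. Deviations from the tissue means of same-numbered E4.5 libraries correlated at 0.0791, -0.107 and -0.109 over 16603 genes. The E4.5-Ant mean included the rRNA-rich library, so these values cannot settle whether the numbers pair the libraries. W-linked counts ran in the same order in both tissues, with 1844, 2173 and 1421 CPM in E4.5-Ant and 1387, 1636 and 1137 CPM in E4.5-Post. The main fit treated the libraries as unpaired. With that number as a replicate block, 0 genes were lower in E4.5-Ant over E4.5-Post. E4.5-Post library 2 had no partner in that fit, so the contrast rested on libraries 1 and 3 of each tissue. The unpaired fit without E4.5-Post library 2 also called 0 genes, so the block fit cannot show what pairing changes. No paired analysis was possible because ducts and E4.5 tissues came from different embryos, for the other comparisons. RPL3L and RPL14 had too few counts for firm values, and E4.5-Ant rests on 2 libraries.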
